A study of Saccharomyces cerevisiae with 12 samples.

Results

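The Flo+ Cyc8-AA experiment asked which transcripts change when Cyc8p is taken out of the nucleus of yeast that are free to flocculate. It comprised the 6 of the 12 samples of the series that received no mannose, 3 +Rap and 3 -Rap, and the other 6 are the Flo- Cyc8-AA experiment, in which mannose kept the cells from flocculating. All samples came from 1 Saccharomyces cerevisiae strain, Cyc8-AA, derived from HHY221 and of mating type a. It carries the tor1-1 allele, a disruption of FPR1 by loxP-LEU2-loxP, RPL13A fused to 2xFKBP12 and CYC8 fused to FRB with the HIS3 marker. In this strain rapamycin bridges the FRB tag on Cyc8p to the FKBP12 tag on a ribosomal protein, which carries Cyc8p out of the nucleus, and the tor1-1 allele with the loss of FPR1 makes growth insensitive to the drug. Each culture was split at an OD600 of about 0.3 in YPD with 2% glucose at 30 °C: the +Rap part received rapamycin at 1 µg/ml, the -Rap part only DMSO, its solvent, and RNA was taken 4 h later. Every sample, -Rap included, therefore carried the tagged CYC8, the anchor and the tor1-1 and fpr1 changes. The +Rap cells were flocculating at harvest and the -Rap cells were not, so within this experiment loss of Cyc8p, exposure to rapamycin and growth in flocs cannot be told apart. A strain without the FRB tag was not analysed here.

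Cyc8p, also called Ssn6, forms with Tup1p a corepressor that has no DNA-binding domain of its own. Sequence-specific repressors bring it to promoters: Mig1 at glucose-repressed genes, Rox1 at hypoxic genes, Rfx1 (Crt1) at DNA-damage genes, Sko1 at osmotic stress genes, Nrg1 at starch and flocculin genes, and the a1 and alpha2 proteins at mating-type genes. Once there, it positions nucleosomes, recruits histone deacetylases and interferes with Mediator. The complex is also known for silencing large gene families near chromosome ends, among them the flocculin genes FLO1, FLO5 and FLO9.

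Removal of Cyc8p was followed mainly by gain of transcripts. Of 6100 genes tested by limma, 669 were upregulated (11.0%) and 127 were downregulated (2.08%), where a call needed a Benjamini-Hochberg adjusted p-value no higher than 0.01 together with a log2 fold change of 1 or more either way. The gains were also much larger than the losses. The median log2 fold change of the upregulated genes was 1.86, 304 of them changed by at least 2, 50 by at least 5 and 18 by at least 7, with the highest at 11.37. The median of the downregulated genes was -1.15, and only 5 of them reached a change of 2 in size. Those 5, singled out after their values were seen, were PHM6, MEP2, ALD5, LEU9 and the unannotated YMR316C-B, of which the last was counted at most 20 times in any sample.

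Upregulated genes lay at both low and high levels. The mean normalised count (raw counts scaled by TMM factors to the mean library of 28768849 counts) in -Rap was under 100 for 169 of the 669 (25.3%) and under 1000 for 450 (67.3%), whereas in +Rap 152 exceeded 10000. Upregulated genes together took 28.5%, 30.77% and 30.2% of all counts in the +Rap samples, against 5.98%, 6.96% and 8.2% in the -Rap samples. Downregulated genes took 0.99%, 0.89% and 0.89% in +Rap, against 2.92%, 2.84% and 2.47% in -Rap. The groups of 3 did not overlap for any called gene, of either direction, which is true of 56.1% of all tested genes. Where groups do not overlap, every pair of +Rap and -Rap parts must change the same way, so agreement of the pairs adds no evidence.

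**Figure D1:**
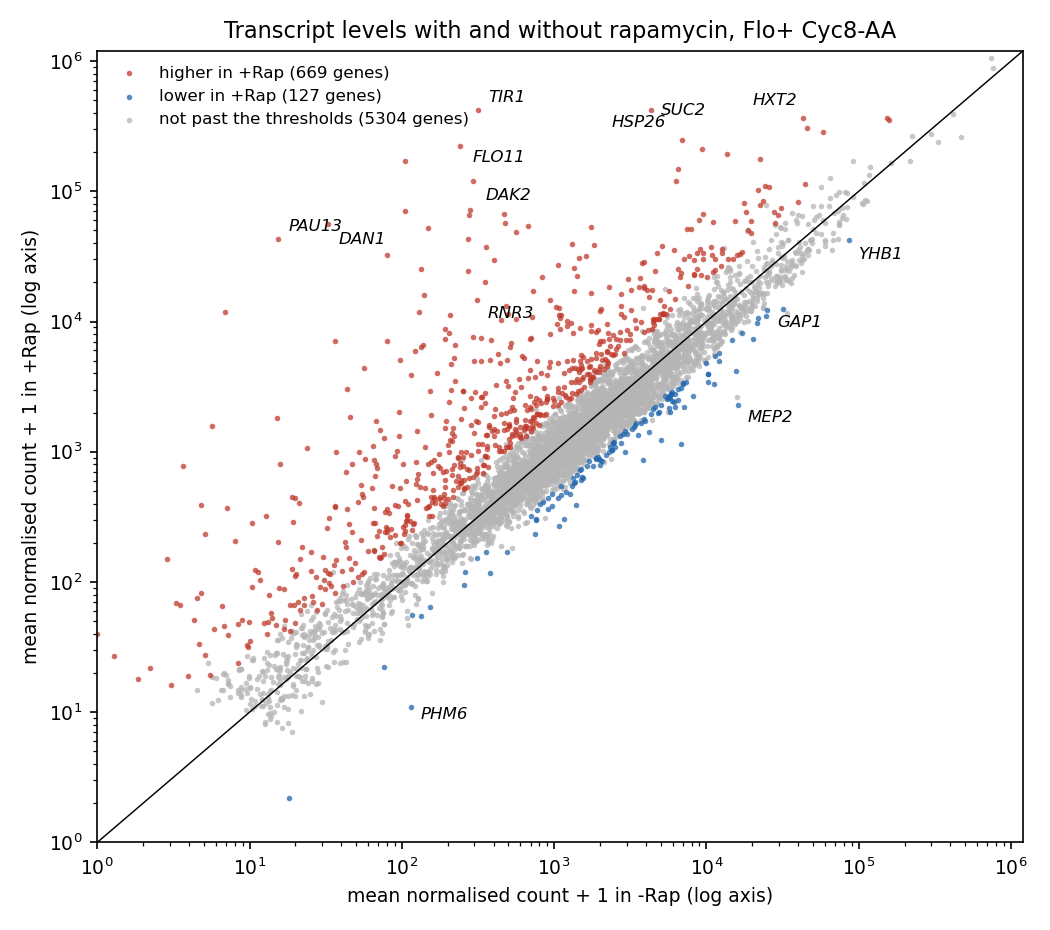
Mean normalised count plus 1 in +Rap (vertical, log axis) against -Rap (horizontal, log axis) for the 6100 tested genes, with the line of equal level. The 669 genes higher in +Rap (red) lie above the line, farthest at low and middle -Rap levels and close to it at the highest, and the 127 genes lower in +Rap (blue) lie close under it.

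Depth ran from 26125728 to 30562700 counts over the 6 libraries. Replicates differed by more than counting error, and the -Rap samples varied more among themselves (Pearson r of log2 values 0.9797 to 0.9905) than the +Rap samples (0.9943 to 0.9955), with -Rap replicate 3 the most distant. The count of downregulated genes moved with single libraries: it was 242 without -Rap replicate 3, 72 without -Rap replicate 2, 73 without +Rap replicate 2 and 71 without +Rap replicate 3, whereas the upregulated genes stayed between 499 and 749. Because the upregulated genes filled a large part of the +Rap libraries, the scaling set the balance of calls. With samples scaled to their total counts, the median of all tested genes shifted by -0.34 on the log2 scale, and 504 genes were upregulated and 499 downregulated, so that 50.2% of calls were gains, against 84% with TMM. Losses below are therefore given relative to the typical gene. In these bulk samples, fewer transcripts in each cell and fewer cells that express a gene cannot be told apart.

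The transcript of CYC8 itself was not lost: it had 2041, 2428 and 2375 normalised counts in +Rap, against 1948, 1784 and 1418 in -Rap (log2 fold change 0.42 ± 0.14 SE, adjusted p = 0.0475). Anchor-away moves the protein and leaves its gene intact, so these counts do not test whether Cyc8p was depleted. TUP1, the partner subunit, had 7820, 11594 and 9564 normalised counts in +Rap, against 10564, 12031 and 8509 in -Rap, and the groups overlapped. None of the 10 genes of the corepressor and its histone deacetylases passed the thresholds. The 4 alpha-specific genes, which cells of mating type a keep low, took between 0.003% and 0.004% of counts in every sample. The 7 a-specific genes took more than that in every sample, but their share was lower in +Rap. It was 0.053%, 0.051% and 0.046% in +Rap, against 0.114%, 0.142% and 0.096% in -Rap.

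The tested genes were grouped into 63 lists by pathway or family, which held 251 of the upregulated and 67 of the downregulated genes. The count of each list is to be read against the 11.0% and 2.08% of all tested genes. Lists with the highest medians were the flocculins, sucrose and maltose use, the minor hexose and polyol transporters, the anaerobic mannoproteins and the seripauperins. Their medians lay between 4.41 and 5.80, beside a median of -0.02 over all tested genes. Medians cover only members that passed the filter on low counts, and a member silent without rapamycin passes only if high in +Rap. The lowest medians belonged to ribosome assembly (-0.85), daughter cell separation (-0.74) and RNA polymerases I and III (-0.66).

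**Figure D2:**
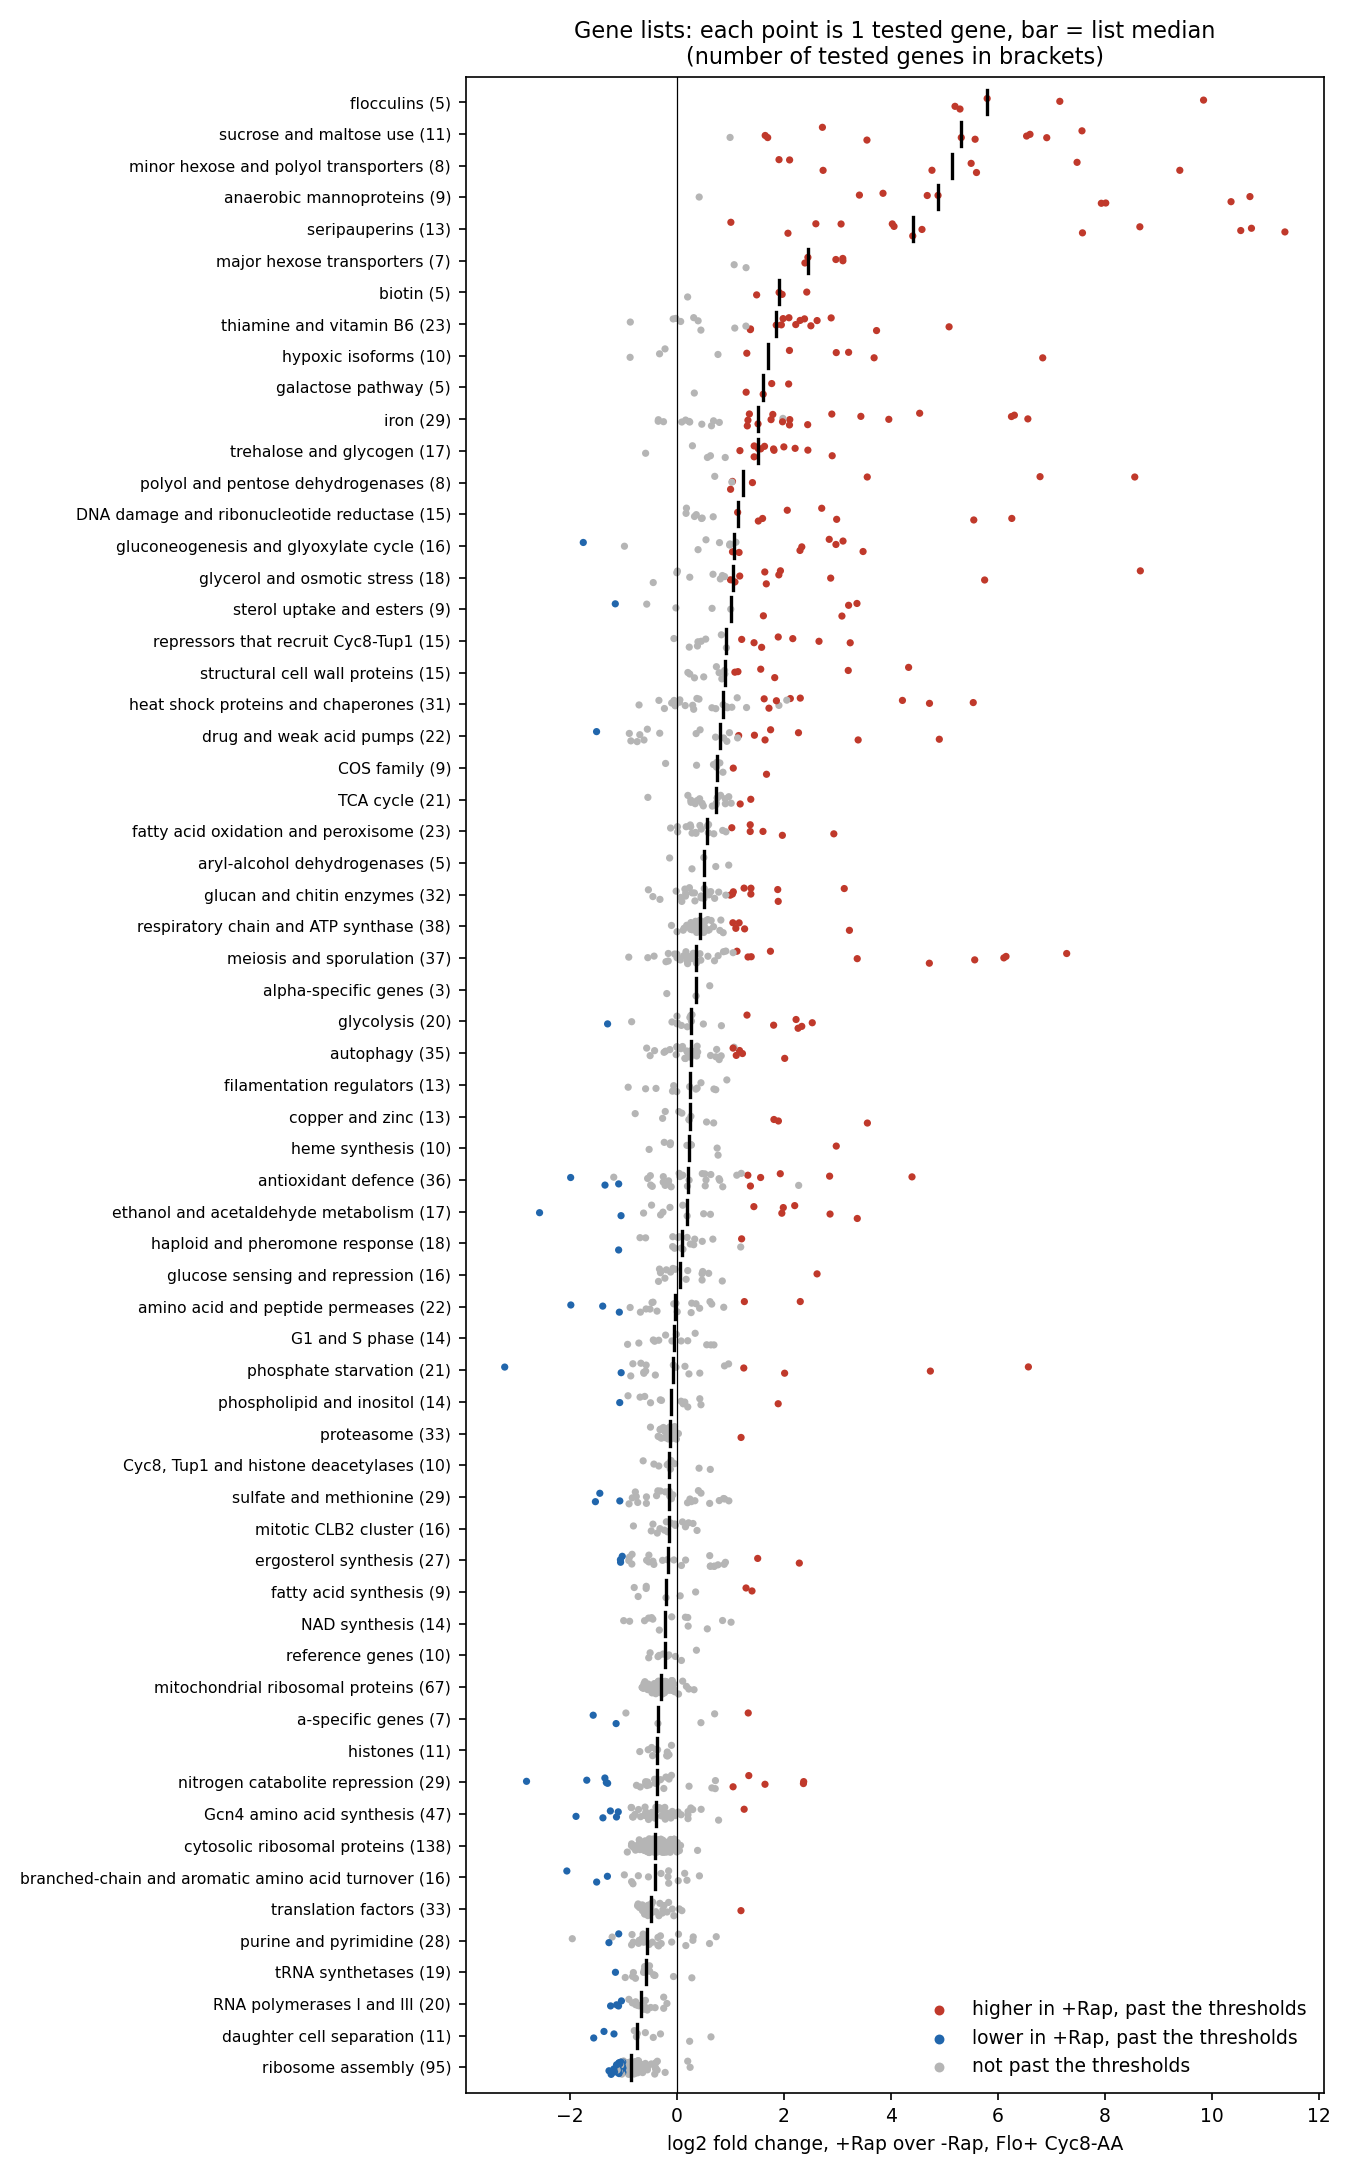
Log2 fold change of +Rap over -Rap for each tested gene of the 63 lists, ordered by list median (black bar), with the number of tested genes in brackets and genes past the thresholds in red (higher in +Rap) or blue (lower in +Rap). The 5 flocculins are all red and lie between 5.20 and 9.85, whereas all but 2 of the 95 ribosome assembly genes lie below 0.

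Genes of anaerobic and low-oxygen growth included some of the largest single gains. The TIR and DAN genes encode cell wall mannoproteins that replace the aerobic wall proteins when oxygen is absent. The list of anaerobic mannoproteins is not limited to them and also holds TIP1. Of its 9 genes 8 were upregulated, with a median log2 fold change of 4.88. TIR1 had 395468, 474664 and 388837 normalised counts in +Rap, against 308, 346 and 296 in -Rap (log2 fold change 10.36 ± 0.12 SE, adjusted p = 2.2e-09). TIR2 had 59979, 73878 and 63671 in +Rap, against 274, 349 and 197 in -Rap. TIR4, its neighbour on the chromosome, had 58137, 88931 and 68447 in +Rap, against 270, 363 and 203 in -Rap. Every +Rap value of these 3 genes lay far above every -Rap value. The list as a whole took 3.45%, 3.84% and 3.42% of all counts in +Rap, against 0.354%, 0.454% and 0.361% in -Rap. Seripauperins, a family of small serine-poor proteins also made in anaerobic cells, were upregulated in all 13 of the members that passed the filter on low counts, out of 22 listed. A member that is silent without rapamycin passes that filter only if it is high in +Rap, so the 13 are not a sample of the family. PAU5, the 1 tested member with no near-identical copy, had 29084, 36298 and 32249 normalised counts in +Rap, against 67, 87 and 82 in -Rap (log2 fold change 8.65 ± 0.14 SE, adjusted p = 4.29e-09). The other 12 share at least 90% of their sequence over at least 50% of their length with a relative, and how reads shared between copies were assigned is not given in the sources used here, so their single values are uncertain.

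Low-oxygen isoforms of aerobic proteins were upregulated in 6 of 10 cases. ANB1, the hypoxic form of translation factor eIF5A, had 15561, 17368 and 14978 normalised counts in +Rap, against 144, 169 and 106 in -Rap (log2 fold change 6.84 ± 0.17 SE, adjusted p = 4.34e-08); it has a near-identical aerobic copy. CYC7, the second isoform of cytochrome c, had 15920, 17666 and 18103 in +Rap, against 1094, 1298 and 1664 in -Rap. HEM13, which acts late in heme synthesis and is known as a Rox1 target, was the 1 upregulated gene among 10 of heme synthesis, with 33508, 41163 and 38381 in +Rap, against 3506, 7828 and 3909 in -Rap. For each of these genes the groups were separate. Sterols cannot be made without oxygen and are then imported, and of 9 genes of sterol uptake and esters 4 were upregulated and 1 was downregulated. AUS1 changed by 3.37 ± 0.11 SE and PDR11 by 3.09 ± 0.13 SE on the log2 scale, and SUT1, a regulator of sterol uptake, changed by 3.21 ± 0.20 SE. The enzymes that esterify sterols for storage split: ARE1 changed by 1.62 ± 0.23 SE and ARE2 by -1.15 ± 0.15 SE. Sterol synthesis did not move as a block: UPC2 and ECM22, transcription factors of the pathway, were upregulated with log2 fold changes of 2.29 and 1.51, while the enzymes ERG12 (-1.05), ERG2 (-1.05) and ERG6 (-1.02) were downregulated. Without +Rap replicate 3 the count of downregulated sterol synthesis genes was 1, without -Rap replicate 1 it was 1, and without -Rap replicate 3 it was 5.
Promoters of this group show the letters searched for, ATTGTT (the Rox1 core) and TCGTATA (the Upc2 sterol element), on either strand and in capitals. They are stretches of the RefSeq R64 genome upstream of the start codon, printed 5′ to 3′ on the strand of the gene: ANB1 at chrX:525544-525718 and DAN1, an anaerobic mannoprotein gene, at chrX:709879-709971, both on the minus strand.
ANB1: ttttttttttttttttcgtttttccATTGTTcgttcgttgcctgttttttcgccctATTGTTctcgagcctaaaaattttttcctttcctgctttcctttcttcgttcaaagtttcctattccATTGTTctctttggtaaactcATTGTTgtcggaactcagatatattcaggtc
DAN1: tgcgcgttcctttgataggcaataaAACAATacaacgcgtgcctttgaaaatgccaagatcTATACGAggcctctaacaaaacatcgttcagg
The ANB1 stretch holds ATTGTT 4 times and the DAN1 stretch holds each motif 1 time. Over the 500 bases upstream of the start codon, 8 of 10 genes of the low-oxygen isoform list held ATTGTT, beside 49.1% of all 5709 promoters examined, and TCGTATA stood in 4 of 9 anaerobic mannoprotein and 6 of 13 seripauperin promoters, beside 7.0% of all. The 13 seripauperins are those that passed the filter on low counts, and 12 of them have near-identical copies. Their promoters are thus not a sample of the family and may not be independent. Among upregulated genes with no near-identical copy, TCGTATA stood in 8.1% of promoters.

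Carbon source genes that glucose keeps silent were expressed although the medium had been made with glucose. In the list of sucrose and maltose use, 10 of 11 genes were upregulated with a median log2 fold change of 5.32. SUC2, the invertase that splits sucrose, had 357629, 474196 and 419967 normalised counts in +Rap, against 3393, 4789 and 4772 in -Rap (log2 fold change 6.60 ± 0.17 SE, adjusted p = 5.87e-08). IMA1, an isomaltase, had 54716, 56756 and 60754 in +Rap, against 432, 493 and 497 in -Rap. Its relative IMA2 changed by 7.57 ± 0.18 SE and MAL12, a maltase, by 6.54 ± 0.22 SE, but both have near-identical copies. The 11 genes took 1.54%, 1.77% and 1.72% of counts in +Rap, against 0.029%, 0.040% and 0.036% in -Rap. All 8 tested minor hexose and polyol transporters, out of 11 listed, were upregulated with a median of 5.14, and 5 of the 8 have copies. As with the seripauperins, a member silent without rapamycin is tested only if it is high in +Rap. HXT13, a sugar alcohol transporter with a copy, had 58483, 81767 and 70606 in +Rap, against 74, 140 and 100 in -Rap. STL1, the glycerol importer, had no copy and had 7682, 10074 and 8493 in +Rap, against 186, 203 and 181 in -Rap (log2 fold change 5.50 ± 0.13 SE, adjusted p = 3.42e-08). Polyol dehydrogenases act downstream of such transporters, and 6 of 8 were upregulated, led by DSF1 (8.56 ± 0.33 SE), a mannitol dehydrogenase, and SOR1 (6.79 ± 0.16 SE), a sorbitol dehydrogenase. Of the 8 genes 3 have near-identical copies, DSF1 and SOR1 among them. Only 3 of 8 were past the thresholds without +Rap replicate 2 or without +Rap replicate 3. MAN2, the near-identical copy of DSF1, was counted at most 1 time in any -Rap library, so its fold change is not given.
The promoters of SUC2 and HXT13 are shown because Mig1, the repressor that brings Cyc8-Tup1 to glucose-repressed genes, binds G-rich sites. Capitals mark GNGGGG on either strand in the R64 stretches chrIX:36885-37010 (SUC2, plus strand) and chrV:23648-23731 (HXT13, minus strand).
SUC2: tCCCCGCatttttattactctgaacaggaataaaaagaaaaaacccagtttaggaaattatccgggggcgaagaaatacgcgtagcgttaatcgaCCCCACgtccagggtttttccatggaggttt
HXT13: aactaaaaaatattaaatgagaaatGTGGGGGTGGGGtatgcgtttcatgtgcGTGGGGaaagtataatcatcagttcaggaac
GNGGGG stood 2 times in the SUC2 stretch and 3 times in the HXT13 stretch, where the first pair of matches adjoin. It was present in 10 of 11 promoters of the sucrose and maltose list and in 5 of 8 of the minor transporters, beside 23.2% of all.

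Among the major hexose transporters, 5 of 7 were upregulated. HXT2, a high-affinity transporter, had 342122, 389014 and 365168 normalised counts in +Rap, against 50454, 36223 and 41854 in -Rap (log2 fold change 3.10 ± 0.15 SE, adjusted p = 1.89e-06). HXT4 had 298898, 331008 and 292144 in +Rap, against 17155, 69855 and 49649 in -Rap, so that the -Rap samples differed widely among themselves. The near-identical HXT6 and HXT7 changed by 3.11 and 2.45, and the call of HXT6 was lost without +Rap replicate 2. The galactose pathway, repressed by glucose as well but in need of galactose for induction, moved little by comparison: 4 of 5 genes were upregulated, none by more than 2.09, and GAL7 had 231, 223 and 277 in +Rap, against 64, 69 and 76 in -Rap.

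Lists for non-sugar carbon and for reserves held gains of smaller size. In gluconeogenesis and the glyoxylate cycle 8 of 16 genes were upregulated and 1 downregulated (2 without -Rap replicate 2 or +Rap replicate 3). JEN1, the lactate and pyruvate importer, had 6636, 7489 and 8032 normalised counts in +Rap, against 518, 541 and 1011 in -Rap (log2 fold change 3.48 ± 0.25 SE, adjusted p = 2.22e-05). PCK1, the first enzyme particular to gluconeogenesis, had 2651, 4002 and 3886 in +Rap, against 510, 413 and 517 in -Rap. ADR1, an activator of genes for growth on ethanol and fatty acids, changed by 3.11 ± 0.29 SE. CIT2, the peroxisomal citrate synthase, went against the others with 3483, 3070 and 3444 in +Rap, against 11273, 12666 and 9739 in -Rap. Trehalose and glycogen genes were upregulated in 12 of 17 cases with a median of 1.52, among them GPH1, glycogen phosphorylase (2.91 ± 0.29 SE), GDB1, the debranching enzyme (2.45 ± 0.23 SE), UGP1, which makes UDP-glucose (2.21 ± 0.15 SE), and GSY2, glycogen synthase (2.00 ± 0.20 SE). Enzymes that break glycogen down and enzymes that build it were thus both among the gains. In fatty acid oxidation 6 of 23 genes were upregulated, with POT1, the peroxisomal thiolase, at 2.94 ± 0.19 SE.

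The central routes moved in single isoforms. Glycolysis had 6 upregulated and 1 downregulated gene of 20, a median of only 0.27, and a share of counts between 10.26% and 10.76% in +Rap, against 10.16% to 10.43% in -Rap. The upregulated ones were minor or regulated isoforms: HXK1, hexokinase 1, had 87214, 105881 and 116444 normalised counts in +Rap, against 12791, 19546 and 33317 in -Rap, and GLK1, glucokinase, had 89490, 127388 and 112434 in +Rap, against 17074, 21611 and 33580 in -Rap. TDH1, a glyceraldehyde-3-phosphate dehydrogenase, had 246869, 322416 and 288469 in +Rap, against 19730, 68050 and 88127 in -Rap, and its call was lost without any 1 of the +Rap replicates. Without +Rap replicate 2, only 3 glycolytic genes were upregulated. Of 17 genes of ethanol and acetaldehyde metabolism, 6 were upregulated, a count that was 2 without +Rap replicate 2 and 3 without +Rap replicate 3, and 2 were downregulated (1 without -Rap replicate 1 or +Rap replicate 1). PDC6, a minor pyruvate decarboxylase, changed by 3.37 ± 0.26 SE. ALD5, a mitochondrial aldehyde dehydrogenase, had 1157, 1042 and 1257 in +Rap, against 8187, 6152 and 6234 in -Rap (log2 fold change -2.56 ± 0.14 SE, adjusted p = 5.64e-06). Of the TCA cycle 2 of 21 genes were upregulated (7 without -Rap replicate 3), and of the respiratory chain and ATP synthase 5 of 38 (2 without -Rap replicate 1, and 3 without -Rap replicate 2 or any 1 of the +Rap replicates), shares near the 11.0% of all tested genes. With scaling to total counts, each of these lists had 1 gain. NDE2, an external NADH dehydrogenase, led these with 1646, 1629 and 1844 in +Rap, against 157, 125 and 296 in -Rap.

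Stress genes formed a further group. HSP26, a small heat shock protein, had 232820, 243973 and 267358 normalised counts in +Rap, against 2616, 4039 and 14204 in -Rap (log2 fold change 5.54 ± 0.53 SE, adjusted p = 0.000125). HSP12, a membrane-stabilising stress protein, had 146398, 144179 and 154061 in +Rap, against 2569, 6890 and 9942 in -Rap. The +Rap samples lay close together for both genes, and the spread came from -Rap. Over the whole list 8 of 31 heat shock and chaperone genes were upregulated, which was 16 without -Rap replicate 3, 5 without -Rap replicate 2 and 5 without any 1 of the +Rap replicates, and with the replicate number as a block it was 13. Antioxidant genes had 6 gains and 3 losses among 36, with 10 gains without -Rap replicate 3. CTT1, the cytosolic catalase, had 30578, 42040 and 43072 in +Rap, against 1520, 1679 and 2311 in -Rap (log2 fold change 4.40 ± 0.20 SE, adjusted p = 1.32e-06), and GTT1, a glutathione transferase, changed by 2.86 ± 0.23 SE. GPX2 (-1.98 ± 0.23 SE), a glutathione peroxidase, and GRX4 (-1.34 ± 0.12 SE), a glutaredoxin, were downregulated. Glycerol and osmotic stress genes were upregulated in 10 of 18 cases. DAK2, a dihydroxyacetone kinase, had 109315, 131629 and 116321 in +Rap, against 292, 283 and 297 in -Rap (log2 fold change 8.66 ± 0.11 SE, adjusted p = 2.2e-09), and AQY1, an aquaporin, had 10321, 12501 and 11012 in +Rap, against 220, 217 and 184 in -Rap. Among drug and weak acid pumps 7 of 22 were upregulated and 1, ATR1, was downregulated (2 without -Rap replicate 1). PDR15 had 39028, 65866 and 55304 in +Rap, against 1441, 1911 and 1904 in -Rap, and RSB1, a lipid transporter, changed by 3.39 ± 0.25 SE. Autophagy genes had 5 gains among 35, a share near the 11.0% of all tested genes, and 3 without -Rap replicate 1 or +Rap replicate 3, 2 without +Rap replicate 2 and 1 with scaling to total counts.
HSP12 is shown for the stress response element AGGGG, whose reverse CCCCT is the core of the Nrg1 site. The R64 stretch is chrVI:106796-107095 on the plus strand, with matches in capitals.
HSP12: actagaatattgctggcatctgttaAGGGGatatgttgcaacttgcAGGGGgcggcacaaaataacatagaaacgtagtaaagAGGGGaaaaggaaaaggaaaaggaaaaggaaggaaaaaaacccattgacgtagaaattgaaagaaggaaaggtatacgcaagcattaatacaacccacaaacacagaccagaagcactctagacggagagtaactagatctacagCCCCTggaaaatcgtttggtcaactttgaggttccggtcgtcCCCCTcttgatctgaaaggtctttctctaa
It holds AGGGG or its reverse 5 times. The motif was present in 15 of 17 trehalose and glycogen promoters and 13 of 31 heat shock and chaperone promoters, beside 34.4% of all.

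**Figure D3:**
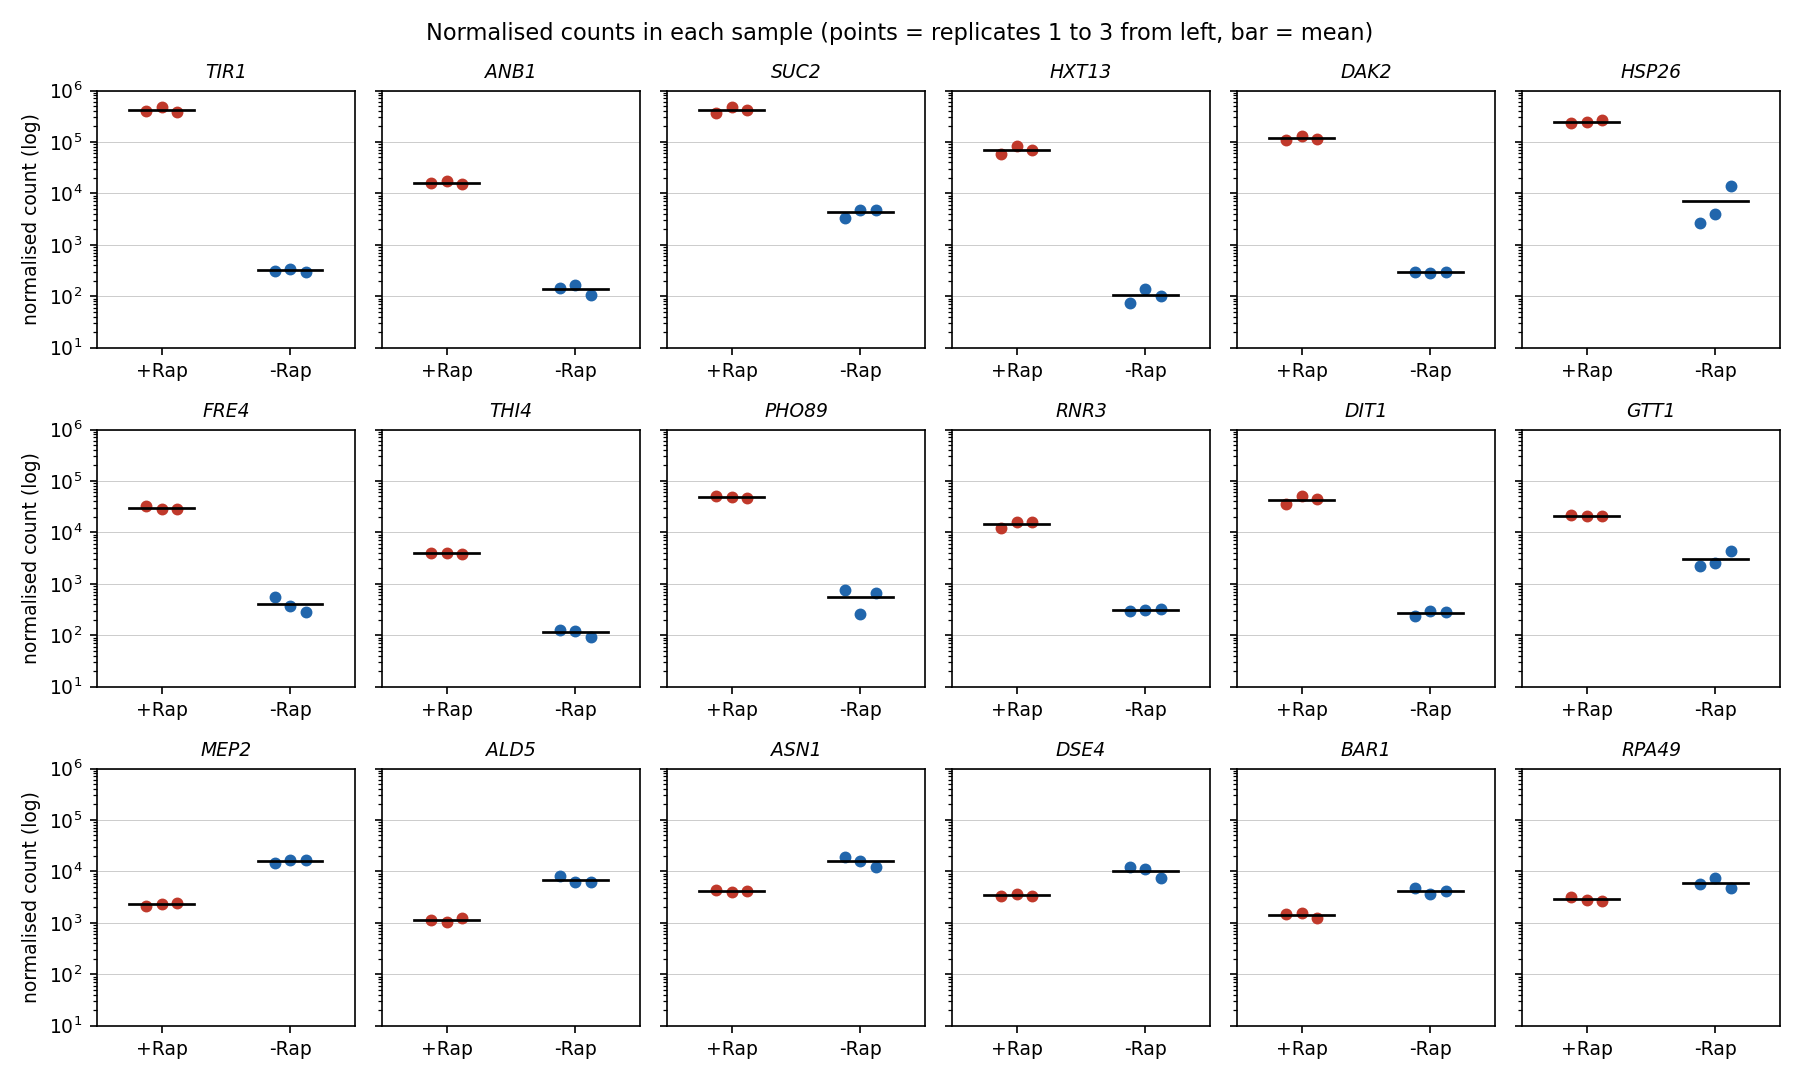
Normalised counts (log axis) of 18 genes in the 3 +Rap samples (red, left in each panel) and the 3 -Rap samples (blue, right), with a bar at each mean. The upper 2 rows show genes higher in +Rap and the lowest row genes lower in +Rap, and the 2 groups do not overlap in any panel.

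Cell surface genes came next. All 5 flocculin genes were upregulated. FLO11, which serves adhesion and filamentous growth, had 184705, 271403 and 217742 normalised counts in +Rap, against 266, 219 and 234 in -Rap (log2 fold change 9.85 ± 0.16 SE, adjusted p = 4.29e-09). Of the lectin-like flocculins, FLO5 had 53380, 81300 and 67631 in +Rap, against 455, 515 and 424 in -Rap. FLO1 and FLO9, which are near-identical to each other in part, changed by 5.80 and 5.29. The 13 regulators of filamentation had no call in either direction by limma, with 3 members higher and 1 lower with an adjusted p-value up to 0.01 below the fold threshold; 1 of the 13 was upregulated without -Rap replicate 3 or +Rap replicate 1, and 1 downregulated without -Rap replicate 3. Structural wall proteins were upregulated in 6 of 15 cases, or 3 without +Rap replicate 2. PIR3, a wall glycoprotein, had 100096, 141513 and 116430 in +Rap, against 3313, 7717 and 7860 in -Rap, and PLB1, a phospholipase B, changed by 1.83 ± 0.17 SE. TIP1, a cold-induced wall mannoprotein of the anaerobic list, had 183987, 245578 and 203893 in +Rap, against 6321, 16735 and 5147 in -Rap (log2 fold change 4.68 ± 0.39 SE, adjusted p = 6.24e-05). Of 32 enzymes of glucan and chitin, 9 were upregulated (5 without +Rap replicate 2), led by NCA3 at 3.13 ± 0.12 SE.

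Metal and vitamin lists held many gains for iron, thiamine and biotin and few for copper and zinc. Iron genes were upregulated in 17 of 29 cases with a median of 1.52 and none downregulated. FIT2 and FIT3 encode wall mannoproteins that hold siderophore iron. FIT3 had 47541, 62873 and 50621 normalised counts in +Rap, against 680, 654 and 675 in -Rap (log2 fold change 6.31 ± 0.13 SE, adjusted p = 2.11e-08). FRE4, a ferric reductase, had 32041, 27907 and 28890 in +Rap, against 548, 363 and 286 in -Rap, and SIT1, a siderophore importer, had 13008, 9984 and 11246 in +Rap, against 635, 408 and 442 in -Rap. Capture, reduction and import were thus all represented. In copper and zinc, 3 of 13 were upregulated: ZPS1, a wall protein of zinc shortage (3.56 ± 0.18 SE), SMF1, a manganese transporter (1.90 ± 0.15 SE), and CTR1, the copper importer (1.82 ± 0.24 SE). Thiamine and vitamin B6 genes were upregulated in 14 of 23 cases, or 8 when genes with copies or overlaps were left out; 1 was downregulated without +Rap replicate 1. THI4, which builds the thiazole part of thiamine, had 4057, 3908 and 3784 in +Rap, against 127, 121 and 94 in -Rap (log2 fold change 5.09 ± 0.14 SE, adjusted p = 6.59e-08). Biotin genes were upregulated in 4 of 5 cases, and BIO3, BIO4 and BIO5, which are adjacent, changed by 2.43, 1.97 and 1.91. For BIO3 the counts were 1717, 1707 and 1667 in +Rap, against 333, 306 and 301 in -Rap.

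Meiotic and DNA-damage genes were upregulated in vegetative, haploid cells. Of 37 meiosis and sporulation genes 10 were upregulated, while the median of the list was 0.37. IME1, the master regulator of entry into meiosis, had 5960, 6315 and 6723 normalised counts in +Rap, against 125, 110 and 166 in -Rap (log2 fold change 5.57 ± 0.16 SE, adjusted p = 9.66e-08). DIT1, which makes dityrosine of the spore wall, had 34927, 50795 and 43830 in +Rap, against 233, 299 and 286 in -Rap, and its divergent partner DIT2 changed by 6.11 ± 0.18 SE. The gains therefore held both the first regulator and late spore wall genes, while 27 members did not pass; 1 was downregulated without +Rap replicate 1. Of 15 DNA-damage and ribonucleotide reductase genes 8 were upregulated. RNR3, the damage-inducible large subunit of ribonucleotide reductase, had 12408, 16095 and 15717 in +Rap, against 296, 306 and 330 in -Rap (log2 fold change 5.55 ± 0.13 SE, adjusted p = 3.42e-08). HUG1, an inhibitor of the enzyme, had 3978, 4707 and 4492 in +Rap, against 55, 51 and 59 in -Rap, and RNR4, a small subunit, had 179315, 178267 and 177765 in +Rap, against 21102, 20215 and 26595 in -Rap. Both groups were tight and separate for these 3 genes.
Rfx1 binds X-boxes, of which CATGGCAAC is a part, and the RNR3 promoter is shown for it at chrIX:240946-241004 of R64 on the minus strand, with the match in capitals.
RNR3: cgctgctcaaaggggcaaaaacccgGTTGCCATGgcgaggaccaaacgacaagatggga
The reverse of the 9 letters stands 1 time. They were found in 2 of 15 promoters of the DNA-damage list, beside 0.4% of all.

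Genes of the repressors that bring Cyc8-Tup1 to DNA were themselves upregulated in 7 of 15 cases and downregulated in none. CIN5, a leucine zipper factor of salt tolerance, had 8744, 9454 and 10523 normalised counts in +Rap, against 788, 1499 and 864 in -Rap (log2 fold change 3.24 ± 0.23 SE, adjusted p = 2.36e-05). NRG1, a glucose-responsive zinc finger repressor, had 12274, 13166 and 12070 in +Rap, against 1974, 2685 and 1455 in -Rap. MIG3 and PHD1 changed by 2.17 and 1.90. The genes of glucose sensing and repression, by contrast, had 1 gain among 16, which was REG2, a regulatory subunit of protein phosphatase 1, with 1030, 1291 and 1373 in +Rap, against 137, 190 and 293 in -Rap.

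Losses were shallow and gathered in the making of ribosomes. Of 95 genes of ribosome assembly 20 were downregulated and none upregulated, the list median was -0.85, and 51 were lower with an adjusted p-value up to 0.01 by limma, whatever their fold change. ESF1, a nucleolar protein of small subunit assembly that stands in no list, had 2432, 2052 and 2118 normalised counts in +Rap, against 5719, 8054 and 4934 in -Rap (log2 fold change -1.47 ± 0.18 SE, adjusted p = 0.000539). ENP2, which acts in the same process, had 1981, 1634 and 1593 in +Rap, against 3747, 5167 and 2984 in -Rap. Among subunits of RNA polymerases I and III, 4 of 20 were downregulated, all of polymerase I: RPA12 (-1.24), RPA34 (-1.12), RPA43 (-1.09) and RPA49 (-1.03). These calls rested close to the threshold. The count for ribosome assembly was 9 without -Rap replicate 1, 0 without -Rap replicate 2, 53 without -Rap replicate 3 and 3 without +Rap replicate 2 or 3, and 74 with scaling to total counts. For the polymerases it was 2, 0, 7, 0 and 0 when the same 5 libraries were left out in that order. Ribosomal proteins themselves had no call, with 138 cytosolic members at a median of -0.40 and 35 of them lower with an adjusted p-value up to 0.01 by limma, and 67 mitochondrial members at a median of -0.29 with 3 lower. Scaling to total counts called 15 cytosolic members downregulated, and leaving out -Rap replicate 3 called 2. Cytosolic members took 8.85%, 7.68% and 8.03% of counts in +Rap, against 13.86%, 13.79% and 12.59% in -Rap. These are shares of all counts, which fall even for unchanged genes when upregulated genes fill the +Rap libraries. Of 19 tRNA synthetases 12 were lower at that p-value, and KRS1, the lysyl enzyme, was past the fold threshold too with 10462, 9975 and 8821 in +Rap, against 22983, 22672 and 19090 in -Rap; 2 were downregulated without +Rap replicate 1 and 3 without -Rap replicate 3. Translation factors had 1 gain, HEF3 (1.20 ± 0.14 SE), an alternative form of elongation factor 3, and no loss among 33. Their median was nonetheless -0.48, with 30 members below 0 and 11 lower with an adjusted p-value up to 0.01 by limma. Scaling to total counts gave 3 losses and 0 gains.

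Amino acid and nitrogen genes also held losses. Of 47 amino acid synthesis genes under Gcn4, the activator of this pathway, 5 were downregulated and 1, HIS6 (1.26), was upregulated. ASN1, an asparagine synthetase, had 4435, 3917 and 4139 normalised counts in +Rap, against 19156, 15584 and 12059 in -Rap (log2 fold change -1.88 ± 0.17 SE, adjusted p = 9.14e-05). ARG1 of arginine synthesis (-1.38 ± 0.20 SE) and HIS4 of histidine synthesis (-1.13 ± 0.16 SE) were also among them, and HIS4 was lost from the calls without -Rap replicate 3. Branched-chain and aromatic amino acid turnover had 3 losses among 16: LEU9, a leucine synthesis enzyme (-2.05), ARO10, a decarboxylase of amino acid breakdown (-1.50), and LEU1 (-1.29). Nitrogen catabolite repression, the system that silences use of poor nitrogen sources, split evenly with 5 gains and 5 losses among 29; the gains were 3 without +Rap replicate 2. MEP2, a high-affinity ammonium permease, had 2141, 2320 and 2393 in +Rap, against 14388, 16844 and 16811 in -Rap (log2 fold change -2.81 ± 0.11 SE, adjusted p = 7.86e-07). PUT4, the proline permease, went the other way with 16730, 21970 and 16892 in +Rap, against 4695, 2776 and 3420 in -Rap. Both belong to the same regulon, so its members did not move together. Among amino acid permeases 3 of 22 were downregulated, among them DIP5, for acidic amino acids (-1.98 ± 0.23 SE), and MUP1, for methionine (-1.38 ± 0.16 SE), and 2 were upregulated, ALP1 (2.31) and AGP3 (1.26). In sulfate and methionine metabolism 3 of 29 were downregulated, but only 1 without any 1 of the +Rap replicates, and up to 2 were upregulated in fits that lacked 1 library (2 without -Rap replicate 1, 1 without -Rap replicate 2, -Rap replicate 3 or +Rap replicate 1). CYS4, which makes cystathionine, had 7584, 7687 and 6938 in +Rap, against 20789, 23005 and 16775 in -Rap. Purine and pyrimidine genes had 2 losses among 28, 6 without -Rap replicate 3 and 1 without -Rap replicate 2, +Rap replicate 2 or +Rap replicate 3; with the replicate block there were 4.

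Phosphate genes went both ways, with 4 gains and 2 losses among 21. PHO89, a sodium-coupled phosphate importer, had 50789, 48717 and 47098 normalised counts in +Rap, against 753, 264 and 673 in -Rap (log2 fold change 6.57 ± 0.35 SE, adjusted p = 4.45e-06). GIT1, an importer of glycerophosphoinositol, had 23419, 28860 and 23657 in +Rap, against 4509, 5920 and 9029 in -Rap. PHM6, a phosphate-regulated gene of unknown function, was the steepest loss of all with 11, 9 and 10 in +Rap, against 149, 114 and 76 in -Rap, and VTC3 of polyphosphate synthesis changed by -1.04 ± 0.15 SE, a call that was lost without -Rap replicate 1. Phospholipid and inositol genes had 1 gain, INO1 (1.90 ± 0.12 SE), the first enzyme of inositol synthesis, and 1 loss, HNM1 (-1.06 ± 0.16 SE), the choline importer, among 14; the losses numbered 0 without -Rap replicate 1 and 2 without -Rap replicate 2. Fatty acid synthesis had 2 gains among 9, of which 1 was left without any 1 of the libraries other than -Rap replicate 3.

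Genes of cell division and mating held few calls, in both directions. Daughter cell separation had 3 losses and no gain among 11. DSE4, a glucanase that cuts the septum from the daughter side, had 3347, 3600 and 3273 normalised counts in +Rap, against 12295, 11038 and 7313 in -Rap (log2 fold change -1.55 ± 0.19 SE, adjusted p = 0.000491), and DSE2, of the same process, had 8584, 13829 and 10952 in +Rap, against 23767, 26748 and 23393 in -Rap. Neither the 16 genes of the mitotic CLB2 cluster, the 14 of G1 and S phase nor the 11 histone genes held a call by limma; with an adjusted p-value up to 0.01 and any fold there were 0, 3 and 2 of them, and leaving out -Rap replicate 3 (CLB2 cluster) or -Rap replicate 2 (G1 and S phase) gave 1 loss. Of 7 a-specific genes, BAR1, the protease that destroys alpha-factor, had 1470, 1551 and 1266 in +Rap, against 4784, 3670 and 4228 in -Rap, STE6, the exporter of a-factor, changed by -1.13 ± 0.14 SE, and ASG7, which acts after mating, changed by 1.34 ± 0.19 SE. Pheromone response genes had 1 gain (PRM1) and 1 loss (AGA1) among 18, and AGA1 was lost from the calls without +Rap replicate 1. The 33 proteasome genes had 1 gain, RPN4, their activator, which was past the thresholds only with all 6 libraries or without -Rap replicate 3. The 14 NAD synthesis and 5 aryl-alcohol dehydrogenase genes had no call by limma, with 4 and 1 of them with an adjusted p-value up to 0.01; 1 aryl-alcohol dehydrogenase was upregulated without -Rap replicate 3 or +Rap replicate 1, and 1 NAD gene was upregulated without -Rap replicate 3 and 1 downregulated without -Rap replicate 3 or +Rap replicate 2. The COS family had 2 gains among 9 and 1 without -Rap replicate 1 or 2 or +Rap replicate 2 or 3. Of 10 genes often used as references none was called, with log2 fold changes from -0.52 to 0.37.

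A large part of the response stood in no list: 418 upregulated genes, 178 of all upregulated genes being known only by a systematic name. Among unlisted genes with no copy and no overlap, RCK1, a protein kinase of the oxidative stress response, had 40394, 35527 and 36025 normalised counts in +Rap, against 337, 574 and 152 in -Rap (log2 fold change 6.91 ± 0.40 SE, adjusted p = 7.28e-06). GID10, a substrate receptor of the GID ubiquitin ligase that degrades gluconeogenic enzymes, had 6214, 5454 and 6247 in +Rap, against 107, 107 and 149 in -Rap. SGA1, the sporulation glucoamylase, changed by 4.87 ± 0.11 SE, SHC1, a sporulation activator of chitin synthase, by 4.76 ± 0.11 SE, and AQY3, a putative water channel, by 4.72 ± 0.15 SE. The uncharacterised YLR012C had 1533, 1534 and 1646 in +Rap, against 9, 3 and 3 in -Rap. All 4 upregulated genes with under 3 counts in each -Rap library, YIR040C, MAN2, YOR392W and ECM23, stayed below a mean of 100 in +Rap. Among unlisted losses were OAC1, a mitochondrial oxaloacetate carrier (-1.90 ± 0.20 SE), PEX2, a peroxisomal import factor (-1.82 ± 0.13 SE), IRC7, a cysteine desulfhydrase (-1.68 ± 0.16 SE), and DRE2, of cytosolic iron-sulfur cluster assembly (-1.39 ± 0.12 SE). YHB1, the nitric oxide dioxygenase, lost the most counts of all downregulated genes, with 40534, 42627 and 42917 in +Rap, against 86098, 86708 and 85971 in -Rap. RNAs outside protein-coding genes were all looked at after the fact, and few were tested. Upregulated were 2 of 46 snoRNAs, 1 of 7 ncRNAs, 1 of 5 antisense RNAs and 1 of 5 tRNAs, beside 11.0% of all tested genes. Of the snoRNAs 1 was downregulated, beside 2.08%. IRT1, the noncoding RNA that runs through the IME1 promoter, had 8307, 8181 and 8482 in +Rap, against 1893, 1891 and 1881 in -Rap. It thus rose together with IME1.

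The share of upregulated genes differed with the distance from chromosome ends. Among the 5 outermost genes of each chromosome arm 41 of 86 tested genes were upregulated (47.7%), at ranks 6 to 10 it was 67 of 155 (43.2%), at ranks 11 to 20 it was 53 of 304 (17.4%), and beyond rank 40 it was 404 of 4544 (8.9%). Genes silent without rapamycin pass the filter on low counts only if they are high in +Rap, which raises such shares where silent families lie. Over all genes of the table, tested or not, a denominator added after the data were seen, the shares were 41 of 128 (32.0%), 67 of 158 (42.4%), 53 of 315 (16.8%) and 404 of 4625 (8.7%) for the same ranks, so the filter moved the 5 outermost ranks by about 1.5 times and the others little. Near-identical families crowd these ends, but with all genes that have a copy left out, the shares were 41.9%, 37.6%, 16.4% and 8.6% of the tested genes and 36.0%, 36.7%, 16.0% and 8.5% of all such genes in the table. Downregulated genes made up 1.2% of the 5 outermost ranks and 2.2% beyond rank 40. Neighbours rose together: 46.8% of 617 upregulated genes with a place in the annotation had an upregulated gene directly beside them, against 14.8% of genes not upregulated, and beyond the 20 outermost genes these shares were 36.6% and 13.8%. Downregulated genes had a downregulated neighbour in 3.2% of cases, against 4.2% for others.

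**Figure D4:**
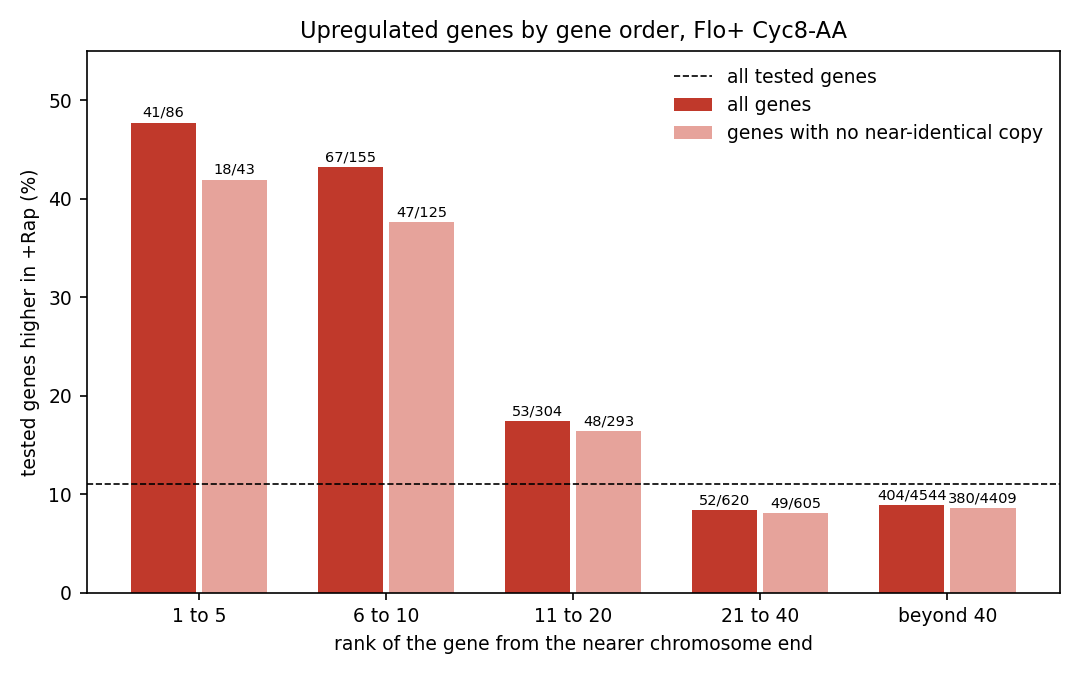
Share of tested genes higher in +Rap (vertical, percent) by rank from the nearer chromosome end (horizontal), for all genes (dark) and genes with no near-identical copy (light), with counts above the bars and a dashed line at the 11.0% of all tested genes. The share is 47.7% for the 5 outermost genes, or 32.0% over all genes of the table at those ranks, and 8.9% beyond rank 40.

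The longest unbroken runs of upregulated genes lay near chromosome ends and crossed functions. On chromosome XV, 9 adjacent genes from YOL163W to HXT11 included PAU20, the siderophore importer ENB1 and IMA2. On chromosome I, 8 adjacent genes ran from YAL065C through FLO9 and GDH3 to BDH2. On chromosome VI, 7 adjacent genes joined SNZ3 and THI5 of vitamin synthesis with AGP3, AQY3, DAK2 and ZNF1. On chromosome VII, BIO2 stood beside IMA1, the MAL1 cluster (MAL13, MAL11, MAL12) and PAU12, and on chromosome V, DSF1 and HXT13 began a run of 6 that ended with SIT1. Sugar, vitamin, iron and anaerobic genes thus sat side by side in these runs. Runs far from the ends were shorter and often of related genes, such as TIR4, TIR2 and AUS1 on chromosome XV, PDR11, YIL012W and TIR3 on chromosome IX, and DDR48, PAI3, SIP18 and YMR175W-A on chromosome XIII.

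Some short promoter motifs differed in frequency between called genes and the rest. In the 500 bases upstream of the start codon, and on either strand, GNGGGG was present in 37.9% of 617 upregulated, 17.6% of 125 downregulated and 23.2% of all 5709 promoters. AGGGG was present in 53.2%, 22.4% and 34.4% of the same sets, and 40.9% of all promoters with GNGGGG hold both in overlap as GAGGGG. The Sko1 core ACGTCA was present in 18.0%, 10.4% and 13.3%, TCGTATA in 9.2%, 9.6% and 7.0%, and TATAAA in 68.1%, 62.4% and 60.2%. The Gcn4 motif TGACTC was present in 10.5% of upregulated and 18.4% of downregulated promoters, beside 13.0% of all, and the Swi5 motif TGCTGG in 12.5% and 17.6%, beside 14.2%. Shares were within 4 percentage points of the background in the upregulated set for ATTGTT (52.2%), CATGGCAAC (0.8%), CACGTG of Pho4 and Cbf1 (4.9%, beside 6.2%) and CCAAT of the Hap complex (59.2%, beside 62.8%). CACGTG was nonetheless present in 12 of 21 promoters of the phosphate list. The Upc2, Gcn4 and Swi5 motifs were also within 4 percentage points of the background in the upregulated set. In the downregulated set, the Rox1 core was present in 37.6% of promoters, beside 49.1% of all. The X-box part, the Pho4 and Cbf1 motif and the Hap motif were present there in 0.0%, 4.8% and 58.4%. A match in letters is not a bound site.

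The same genes were mostly upregulated without flocculation too, and often by more. In the Flo- Cyc8-AA experiment 14.8% of 6325 tested genes were upregulated and 2.59% downregulated, and these included 553 (82.7%) of the 669 upregulated and 44 (34.6%) of the 127 downregulated genes of Flo+ Cyc8-AA. The median log2 fold change of the 669 genes was 1.86 in Flo+, against 2.49 in Flo- over the 657 tested there. A test of the difference in ratios over all 12 samples found 27 of the 669 more strongly upregulated in Flo+ and 102 less strongly, beside 1.16% and 2.61% of 6403 genes tested. The Flo- libraries were made at another time and with single-end reads, and mannose was present in both of their groups, so flocculation, mannose and run cannot be told apart in this difference. The 2 experiments share no sample. The genes more strongly upregulated in Flo+ included FLO5 (difference 1.05 ± 0.22 SE), SUT1 (1.44), RPN4 (1.69) and AGP3 (2.41). AGP3 and SLI1, an N-acetyltransferase that inactivates a sphingolipid synthesis inhibitor, were the 2 genes upregulated in Flo+ and downregulated in Flo-, an observation made after their values were seen. SLI1 had 4592, 5676 and 4544 normalised counts in +Rap, against 739, 664 and 917 in -Rap, with a log2 fold change of 2.68 in Flo+ and -1.43 in Flo-. Less strongly upregulated in Flo+ were, among sugar and polyol genes, HXT15 (difference -5.58), HXT6 (-4.02), HXT13 (-3.21), STL1 (-2.99) and DAK2 (-2.88), together with GID10 (-3.82), BIO5 (-3.66) and DAN1 (-3.35). HXT15, HXT6 and HXT13 have near-identical copies, and read type differs between the experiments, so their single values are uncertain. HXT7, near-identical to HXT6, had a difference of -1.51 and was not called. Of the members tested in Flo+, 12 of 13 seripauperins and 5 of 8 minor transporters have near-identical copies. Of listed groups, 9 seripauperins, 8 iron genes and 5 minor transporters had a lower ratio in Flo+ and none a higher one, while the CLB2 cluster had 4 members with a higher ratio in Flo+ and none with a lower one. In Flo- 7 of those 16 mitotic genes were downregulated, against none in Flo+. The total number of genes with a higher ratio in Flo+, 74, fell below 50 in several fits that lacked 1 library, to 46, 30 and 26 without +Rap replicates 1, 2 and 3, to 44 without -Rap+Man replicate 2, and to 43 and 35 without +Rap+Man replicates 2 and 3. The number with a lower ratio, 167, was 107 and 110 without +Rap replicates 1 and 3 and 110 without +Rap+Man replicate 3.

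**Figure D5:**
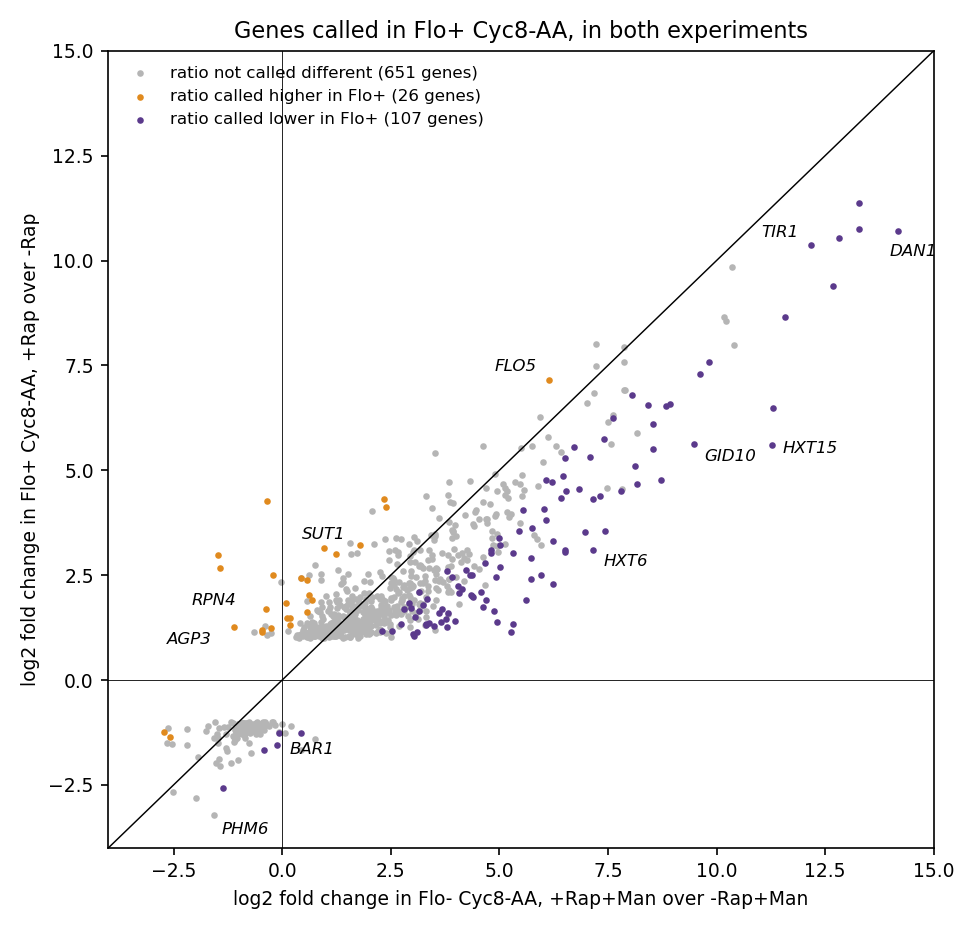
Log2 fold change in Flo+ Cyc8-AA (vertical) against Flo- Cyc8-AA (horizontal) for the 784 genes called in Flo+ and tested in both, with the line of equal change. Purple points, whose ratio was called lower in Flo+ (107), lie under the line and reach the highest fold changes, and orange points (26), whose ratio was called higher in Flo+, lie above it.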

How the data were processed

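The deposited table held raw read counts per gene, written with a comma in values of 1000 and more, for 12 samples and 6775 genes. Per the labels and the study's methods, the authors trimmed reads with fastp 0.20.0 and aligned them with STAR 2.7.3 to the S288c reference of ENSEMBL. The counting tool, its strand setting, its handling of reads that match several genes and the annotation release are not given in the sources used here, so counts of near-identical or overlapping genes are uncertain. A second deposited table held DESeq2-scaled counts with the authors' own fold changes and adjusted p-values, which were not used. The values are whole read counts once the commas are removed, but the deposited cells were not recorded as plain counts, and limma was used in place of the negative binomial test planned first. That test was not run. All 12 count columns were matched to samples by name, and 0 were left unmatched.

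Commas were removed, genes were kept if 3 or more samples reached what equals 10 counts in a library of median depth and all samples together 15, and log2(TMM-scaled count + 2) was fitted with limma 3.58.1 in R 4.3.3 with a trend in the variances. Fold changes are on this scale, which understates changes of low genes. Genes were called by a Benjamini-Hochberg adjusted p-value, over all tested genes, no higher than 0.01 and a log2 fold change of 1 or more either way. The 6 Flo+ samples were fitted alone, and the difference in ratios (Flo+ minus Flo- log2 fold change) over all 12. Genes and lists were chosen with earlier results of these data known. Named genes were CYC8 and TUP1, up to 4 called members of each list in its main direction and up to 2 in the other, the 10 largest gains and losses in counts, and the 10 unlisted genes of each direction with the largest fold change, no copy and no overlap. Other named genes were added after their values were seen.

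Each culture was divided into a +Rap and a -Rap part, per the study's methods. Deviations from the group means correlated at 0.188, 0.122 and 0.248 between parts with the same number. Between parts with different numbers the correlations ran from -0.246 to 0.098. These values are weak and do not settle whether equal numbers mark parts of 1 culture. The main fit left the pairing out, so calls, SEs and adjusted p-values ignore it unless the replicate block is named. The replicate block was run as an alternative, together with RLE and total-count scaling, other filters, added counts and thresholds, voom weights, the set of genes with no overlap and no copy, and the omission of each library. The fit was tested on simulated data. Copies were found with BLAST 2.17.0+ (at least 90% identity over 50% of length). In RefSeq R64, 6216 genes were found by systematic name. Promoters were the 500 bases upstream of the start codon there, for the 5709 tested protein-coding nuclear genes with a full window. The authors' build is not given in the sources used here, so R64 served only for names, gene order and sequences. The result of 1 promoter motif is not reported here.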

Additional observations from a re-analysis of the deposited data

Results flagged for a closer look

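For 45 of the named genes the ratio of +Rap over -Rap differed between the Flo+ and Flo- experiments by limma over all 12 samples (adjusted p-value no higher than 0.01, and a log2 difference of 1 or more either way). Read type, time and mannose differ between the experiments too and cannot be told apart from flocculation. Values are Flo+ minus Flo- log2 fold changes. A higher ratio in Flo+ was found for AGP3 (2.41), RPN4 (1.69), SUT1 (1.44), PRY3 (1.24) and FLO5 (1.05).

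The sugar, polyol and glycerol genes with a lower ratio in Flo+ were HXT15 (-5.58), HXT6 (-4.02), HXT13 (-3.21), STL1 (-2.99), DAK2 (-2.88), GAL2 (-2.44), MAL12 (-2.26), HXT2 (-1.68), REG2 (-1.59) and SOR1 (-1.19). MAN2 (-3.46) was counted at most 1 time in any -Rap library, so its fitted value depends on the added count. Anaerobic and wall genes were DAN1 (-3.35), PAU24 (-2.49), PAU20 (-2.07), PAU13 (-1.82), TIR1 (-1.79) and FLO9 (-1.19). Vitamin, iron and phosphate genes were BIO5 (-3.66), THI4 (-3.00), PHO11 (-2.51), PHO89 (-2.32), GIT1 (-2.30), FIT2 (-1.83) and FRE4 (-1.34). Spore genes were DIT2 (-2.39), DIT1 (-2.31), SGA1 (-1.55) and SHC1 (-1.29). The remaining genes were GID10 (-3.82), SHH3 (-3.53), COS4 (-1.95), FUI1 (-1.68), AQY1 (-1.61), RSB1 (-1.58), BAR1 (-1.42), HAL1 (-1.37), GDH3 (-1.37), IRC7 (-1.23), ALD5 (-1.18) and RNR3 (-1.15), of which FUI1, BAR1, IRC7 and ALD5 were downregulated in Flo+. Near-identical copies exist for HXT15, HXT6, HXT13, MAL12, SOR1, MAN2, PAU24, PAU20, PAU13, FLO9, PHO11 and COS4, so their single values are uncertain.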

How the results depend on the processing

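The count of downregulated genes was the least stable. Total-count scaling gave 499 downregulated genes and 210 with a higher ratio in Flo+, by construction a shift of all fold changes. An adjusted p-value of at most 0.05 gave 135 genes with a higher and 299 with a lower ratio in Flo+. Genes with no overlap and no copy gave 544 upregulated, 106 downregulated, and 53 with a higher and 103 with a lower ratio in Flo+, out of fewer genes tested. Leaving out 1 library gave 499 to 749 upregulated and 71 to 242 downregulated genes, and 26 to 89 with a higher and 107 to 184 with a lower ratio in Flo+. RLE scaling, no filter, a filter at 100 counts, added counts of 0.5 and 10 and voom weights kept these 4 counts within 1.5 times. The replicate block gave 710 upregulated and 145 downregulated genes and 94 and 223 differences, and moved 3 of 126 list counts by over 1.5 times: heat shock 13, purine and pyrimidine losses 4, NAD gains 1.

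Of 214 named genes past the thresholds, 161 kept their call in every alternative in which they were tested, and 43 lost it when 1 library was left out. The log2 fold change of TUP1 turned to 0.01 without -Rap replicate 2 and 0.03 without +Rap replicate 1, and was not called in either; with each library left out in turn it ran from -0.26 to 0.03. Total-count scaling moved 41 of 126 list counts by over 1.5 times, among them losses of Gcn4 genes (12), sulfate and methionine (7), purine and pyrimidine (9), branched-chain and aromatic turnover (7), daughter separation (6) and sterol synthesis (7), and gains of the respiratory chain (1), the TCA cycle (1), autophagy (1) and glucan and chitin enzymes (5). It ended the calls of 19 named genes, ACO1, AGP3, ASG7, ATG40, ATG42, ATG45, COS4, ENO1, GAL3, HEF3, HIS6, INH1, NDI1, OPI10, PHO11, PRM1, RPN4, SED1 and STF1. The cause of moves with single libraries was not tested. With 3 samples a group, fold changes of genes counted under 3 times in each -Rap library are not measured well at this depth.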
